A study of Equus caballus with 45 samples.

Results

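Macrophages from equine blood were compared with the stromal cells of the equine joint, synoviocytes and chondrocytes, after all of them had received inflammatory cytokines and the conditioned medium of resting mesenchymal stromal cells (MSC-CM). The comparison rested on 9 of the 45 libraries of the series, 3 of macrophages, 3 of synoviocytes and 3 of chondrocytes, which were selected by their labels alone. A gene was called macrophage-high when it was at least 4-fold higher in macrophages than in synoviocytes and also at least 4-fold higher than in chondrocytes, each with an adjusted p under 0.05, and stromal-high when it was lower in macrophages by the same rule. Of 20881 protein-coding genes in the table, 15599 reached a total of 10 counts across these 9 libraries and were tested, and 2162 of them were macrophage-high and 2001 stromal-high.

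The study asked how medium from MSC that had been activated through Toll-like receptor 3 or STING acts on joint cells. Here only the medium of resting MSC was compared, with the other media used as a check at the end. The macrophages (macrophages with resting MSC-CM) were blood monocytes of a horse matured for 5 days with 30 ng/mL human M-CSF, the synoviocytes were passaged cells grown from femoropatellar synovium and thawed before use, and the chondrocytes were low-passage cells from femoropatellar cartilage. By the methods, all 3 cell types were given IL-1β and TNF-α together with MSC-CM at 1 part to 3 parts of the cells' own medium for 24 h, and were then washed and kept in plain medium for a further 24 h before lysis, whereas another account in the same source has the cytokines given for 2 h and washed off before the medium. The labels give 10 ng/mL of each cytokine for macrophages and 20 ng/mL for synoviocytes, whereas the methods give the same dose for all cell types. The labels call these libraries untreated, a word that the methods apply to the MSC and not to the joint cells. The 3 libraries of a group carry the codes AG1, ORC and PC in the labels. The methods describe 3 MSC donors and a single horse for the joint cells, so the codes were read as the source of the medium, but of the 3 codes only PC also names MSC libraries and the sources do not tie AG1 and ORC to a donor. On that reading the p-values below measure the spread between these cultures and not between horses. The study's captions call the 3 libraries of a group biological replicates, and whether any spread between horses enters cannot be told. Cell type cannot be told apart from tissue of origin, culture medium, passage and donor horse in this design. By the doses in the labels, which give none for chondrocytes, it cannot be told apart from cytokine dose either. In bulk RNA, fewer cells that carry a transcript and less of it per cell cannot be told apart either.

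Macrophages are phagocytes of the myeloid lineage, set up by the transcription factor PU.1 and kept alive by signalling through the M-CSF receptor. They take up particles through Fc, complement and scavenger receptors, digest them in lysosomes, present antigen on MHC class II and release IL-1, TNF and chemokines. Synovial fibroblasts and chondrocytes are mesenchymal cells that build the collagen and proteoglycan matrix of the joint and, under IL-1 and TNF, release IL-6, chemokines and collagenases.

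The macrophage libraries held 23525704 to 40403096 counts and the stromal libraries 25193501 to 37427167. Levels are given as counts per 1000000 counts of the library (CPM), and listed in the order AG1, ORC, PC; they compare libraries but not genes, since they are not corrected for gene length. A group in which a gene had no count was set at 3 counts over the group for a lower bound of the fold, and 3 counts in a single library came to 0.0743 to 0.128 CPM. The first principal component of all tested genes held 90.6% of the variance and separated macrophages from both stromal cell types, and the second held 6.3% and separated synoviocytes from chondrocytes. Pearson's r of log2 CPM was 0.992 to 0.994 among macrophages, 0.965 to 0.969 between synoviocytes and chondrocytes, and 0.676 to 0.695 between macrophages and either stromal type. The chondrocyte ORC library stood apart from the other chondrocytes, with r down to 0.985 against 0.998 for the remaining pair, and without it 8 calls changed among the 577 tested genes that were listed or named, and 22 genes with over 3 counts in both groups moved by over 1.5-fold against chondrocytes. Where such a value is printed below, it is also given without that library. The ORC chondrocytes stood apart in the other media as well. Stromal matrix genes, listed below, summed to 200000 CPM in that library, against 141000 and 143000 in the PC and AG1 chondrocytes. With medium of TLR3-activated and STING-activated MSC the ORC sums were 209000 and 191000 CPM, against 125000 to 150000 in the AG1 and PC chondrocytes. The cause was not tested.

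The labelled cell types were checked against their defining markers. All 13 macrophage markers used for this check were macrophage-high. They were chosen with earlier results of these data known, and some of them, such as PTPRC, are shared with other leukocytes. All 6 stromal libraries carried the fibroblast collagens, given below. The chondrocyte libraries were low in the cartilage collagens COL2A1 and COL9A1, but not in all cartilage genes. COL2A1, the collagen of hyaline cartilage, was at 0 to 0.0534 CPM in them, at or below the level of 3 counts, and COL9A1 did not reach 10 counts in total. ACAN, the aggrecan core protein, stood at 15.1, 20.2 and 10.3 CPM in chondrocytes against 0.916, 0.477 and 0.654 CPM in synoviocytes. The 24 genes of the cartilage list summed to 1020 to 1260 CPM in chondrocytes and 402 to 646 CPM in synoviocytes. The plot of marker levels by library shows that the macrophage and stromal markers did not overlap between the groups.

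**Figure D1:**
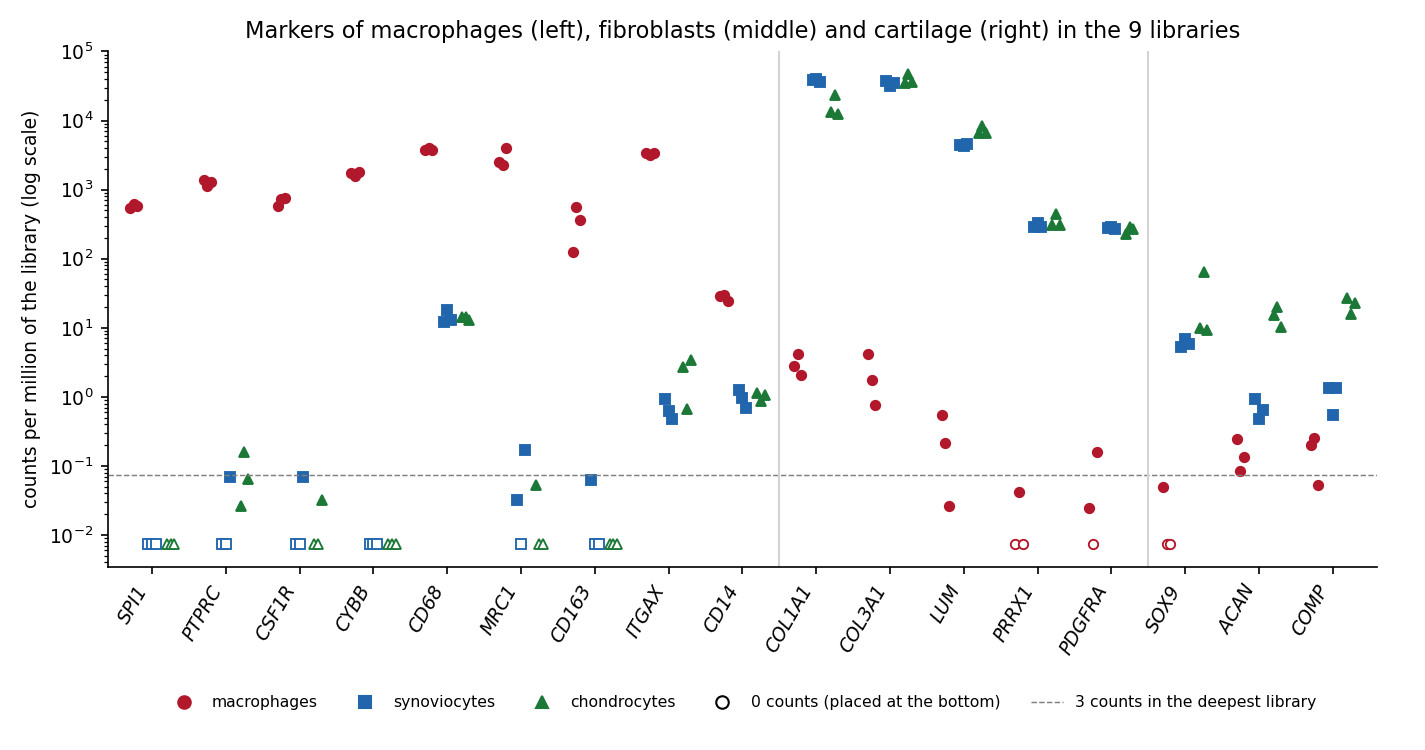
Level of 17 marker genes in each of the 9 libraries, in CPM on a log axis. Each symbol is a library, open symbols at the bottom mark 0 counts, and the dashed line is the level of 3 counts in the deepest library (0.0743 CPM). The 9 macrophage markers lie higher in all 3 macrophage libraries than in the 6 stromal ones, the 5 fibroblast markers lie lower, and SOX9, ACAN and COMP are at or below 0.255 CPM in macrophages.

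Against synoviocytes, 2454 genes were at least 4-fold higher in macrophages, 15.7% of those tested, and 2510 were at least 4-fold lower, 16.1%. Against chondrocytes, 2517 genes (16.1%) were higher and 2389 (15.3%) were lower by the same measure. The 2162 macrophage-high genes were 13.9% of those tested and the 2001 stromal-high genes 12.8%, and these shares are the background for the counts of each gene list below. In 2150 of the macrophage-high genes every macrophage library was above every stromal library, and in 1946 of the stromal-high genes every macrophage library was below. Over all tested genes the macrophages were above all stromal libraries in 5368 (34.4%) and below all of them in 4802 (30.8%). The median log2 fold change over all tested genes was 0.04 in both comparisons.

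The differences were large. Among the macrophage-high genes 526 (24.3%) had no count in any of the 6 stromal libraries, and among the stromal-high genes 320 (16%) had none in the 3 macrophage libraries. The smaller of a gene's 2 log2 fold changes had a median of 5.15 over the macrophage-high genes, or 4.07 with genes at 0 set at their bound, and −4.40 over the stromal-high genes, or −3.90 with bounds. With bounds, 844 macrophage-high and 706 stromal-high genes differed at least 32-fold from both other groups. Near the 4-fold limit, 126 macrophage-high genes had a smaller log2 fold change of 2 to 2.2, and 136 genes with both adjusted p under 0.05 fell just short, at 1.8 to 2. The table lists 422 macrophage-high and 141 stromal-high genes by an Ensembl identifier only.

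**Figure D2:**
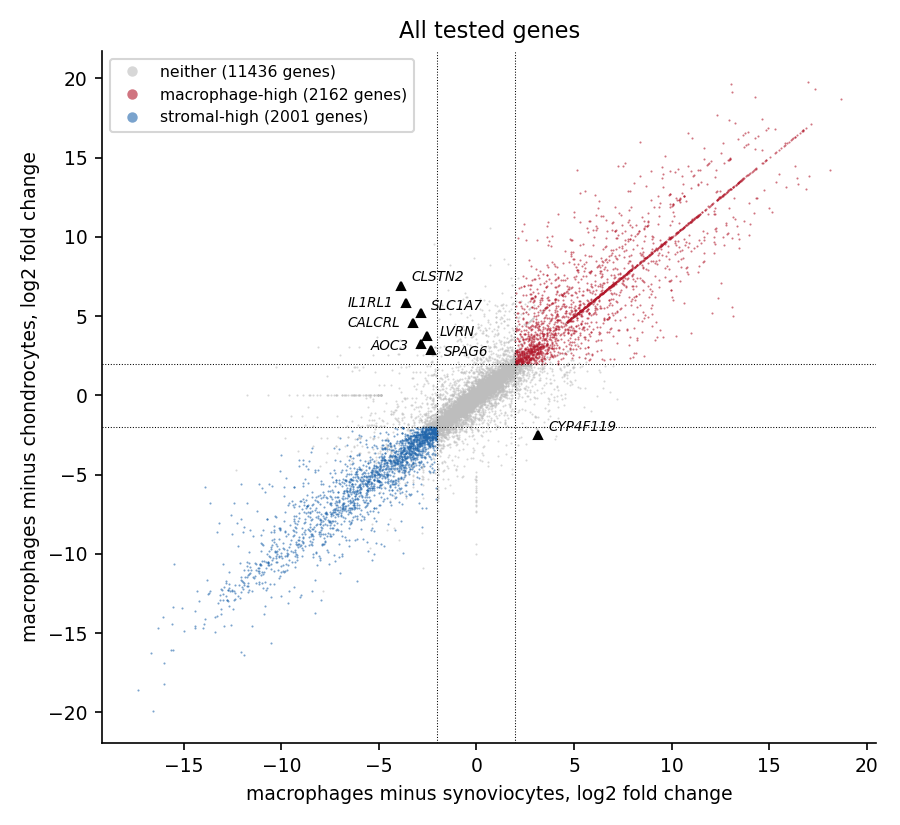
Log2 fold change of each of the 15599 tested genes in macrophages over synoviocytes (x axis) and over chondrocytes (y axis), from edgeR. Points are colored as macrophage-high (2162), stromal-high (2001) or neither, and triangles mark 8 genes called in opposite directions, which lie off the diagonal. The axes share the macrophage libraries, so the diagonal trend is built into the plot.

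The genes that identify macrophages were higher in macrophages throughout. All 24 genes of the list of surface and cytoplasmic identity markers were macrophage-high, against 13.9% of all tested genes, with median log2 fold changes of 9.44 over synoviocytes and 9.76 over chondrocytes (9.44 and 9.36 with genes at 0 at their bound). Their summed level was 15500 to 18000 CPM in macrophages and 147 to 180 CPM in the stromal libraries. CSF1R, the receptor for M-CSF, stood at 574, 740 and 756 CPM in macrophages and had at most 2 counts in any stromal library. PTPRC, the leukocyte common antigen CD45, stood at 1400, 1120 and 1310 CPM against at most 0.159 CPM in a stromal library. CD68, a glycoprotein of macrophage lysosomes, was measurable in all 9 libraries, at 3720, 4060 and 3690 CPM in macrophages, 12.1, 18 and 13 in synoviocytes and 14.4, 14.3 and 12.8 in chondrocytes, a log2 difference of 8.04 ± 0.2 (SE, adjusted p = 2.92e-10) and 8.09 ± 0.2 (adjusted p = 2.59e-10). These 3 genes separated the groups with no overlap.

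Receptors of the same list differed in how evenly the macrophage libraries carried them. MRC1, the mannose receptor, stood at 2520, 2270 and 3940 CPM and was 39700-fold higher than in synoviocytes. CD163, the hemoglobin scavenger receptor, stood at 127, 555 and 367 CPM, lowest in the AG1 library, and was listed at 0 in all chondrocyte libraries, at least 10900-fold lower. ITGAX, the integrin CD11c, was even, at 3430, 3130 and 3410 CPM against 0.482 to 3.39 CPM in stromal libraries. CD14, the lipopolysaccharide co-receptor, stood at 28.9, 30.1 and 24.4 CPM against 0.689 to 1.26 CPM in stromal libraries (log2 difference 4.80 ± 0.215 and 4.72 ± 0.213). The smallest differences of the list were those of SIGLEC1, a sialic acid receptor, and ITGAM, the integrin CD11b. SIGLEC1 was at 486, 1220 and 1040 CPM in macrophages but also at 113 to 140 CPM in all stromal libraries (2.80 and 2.97). ITGAM was at 4.04 to 4.95 CPM in macrophages (2.99 and 2.80).

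Of 20 transcription factors of the macrophage lineage, 13 were macrophage-high and 7 were in neither class, with median log2 fold changes of 5.72 and 6.81 (4.91 and 5.60 with bounds). SPI1, which encodes PU.1, stood at 545, 611 and 582 CPM in macrophages and at 0 counts in all 6 stromal libraries, which made it at least 17000-fold higher than in synoviocytes and at least 18000-fold higher than in chondrocytes. IRF8, a partner of PU.1, stood at 351, 236 and 328 CPM and was at 0 in chondrocytes (at least 9490-fold). EGR2, an early growth response factor of myeloid cells, was 1450-fold and 7060-fold higher. TFEC, a relative of MITF, and IKZF1, the lymphoid and myeloid factor Ikaros, had no stromal counts, with 34.6 to 52.3 and 17.5 to 24.6 CPM in macrophages.

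The lineage factors in neither class included CEBPB, MAF, RUNX1, BHLHE41, KLF4 and ZEB2. CEBPB, a factor of inflammatory gene expression, was at 274 to 535 CPM in all 9 libraries (0.43 and 0.32). The groups overlapped for CEBPB.

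The uptake receptors that were tested were mostly macrophage-high. Among Fc and complement receptors 8 of 10 were macrophage-high and none stromal-high. The list was written with 15 genes, and no gene of the FCGR family, the Fc receptors for IgG, was among the 10 tested. FCGRT, the neonatal Fc receptor, was in neither class. FCRLA and VSIG4 were called on 20 and 22 counts over the macrophage libraries. C5AR1, the receptor for the complement fragment C5a, stood at 310, 395 and 333 CPM and was at 0 in synoviocytes, at least 10100-fold lower. ITGB2, the shared β chain of leukocyte integrins and of complement receptor 3, stood at 596, 731 and 711 CPM against at most 0.275 CPM in stromal libraries. FCER1G, the signalling chain of Fc receptors, stood at 586, 886 and 745 CPM against at most 0.427 CPM. The groups did not overlap for any of these.

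Among 16 scavenger receptors and lectins 11 were macrophage-high and 2, COLEC12 and MRC2, were stromal-high. MSR1, scavenger receptor A, stood at 268, 493 and 382 CPM in macrophages. COLEC12, a collectin scavenger receptor of stromal and vascular cells, was at 0.0495 to 0.085 CPM in macrophages, at 51.7, 64.2 and 56.4 in synoviocytes and at 5.13, 16.5 and 5.05 in chondrocytes (−9.64 and −6.93, the latter −6.13 without the chondrocyte ORC library). MRC2, the collagen uptake receptor of fibroblasts and a relative of MRC1, was at 28.5, 38.7 and 36.8 CPM in macrophages and 841 to 1430 CPM in stromal libraries (−5.21 and −4.68). The mannose receptor family thus had MRC1 in the macrophage-high class and MRC2 in the stromal-high class.

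Signalling and effector machinery of leukocytes followed the identity genes. Of 19 genes of ITAM adaptors and the kinases downstream of them 18 were macrophage-high, of 22 actin regulators of leukocytes 20, and of 7 subunits and regulators of the phagocyte NADPH oxidase 6, with none stromal-high in these 3 lists. TYROBP, the adaptor DAP12, stood at 432, 450 and 359 CPM, and its partner TREM2, a lipid-sensing receptor, at 125, 117 and 69.6 CPM, with at most 2 counts of either in any synoviocyte library and none in chondrocytes. PIK3AP1, the adaptor BCAP, had no stromal counts and was at least 7610-fold higher. LCP1, the actin bundler L-plastin, stood at 2240, 2390 and 2410 CPM against 0.22 to 0.316 in synoviocytes and 0 in chondrocytes. CYBB, the catalytic subunit of the oxidase, stood at 1720, 1570 and 1810 CPM and had no count in any stromal library, no less than 49900-fold above synoviocytes and 52900-fold above chondrocytes.

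Markers of lymphocytes moved with these leukocyte groups. All 14 tested T cell markers and all 10 tested NK cell markers were macrophage-high. The T cell markers summed to 546 to 658 CPM in macrophage libraries and 0.0267 to 0.794 CPM in stromal libraries, and the NK cell markers to 233 to 269 against 0.147 to 1.37 CPM. CD3E, a chain of the T cell receptor complex, stood at 82, 80 and 67.3 CPM in macrophages. CD3G and the T cell kinase ZAP70 were at 43.3 to 49.9 and 56 to 67.6 CPM with 0 counts in all stromal libraries. PRF1, the pore-forming protein of cytotoxic cells, stood at 78.1, 79.4 and 73.8 CPM and GZMA, a protease of the same granules, at 51.8, 40.6 and 44.1 CPM, also with 0 stromal counts. The part of lymphocytes in the ITAM, actin, integrin and chemokine receptor results was not tested. Nor was it tested for other macrophage-high genes, such as PTPRC, IKZF1, IL2RG, TNF and IL10.

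The other marker lists gave mixed counts. Of 9 dendritic cell markers 8 were macrophage-high, summing to 522 to 1010 CPM in macrophages and 11.8 to 29.2 in stromal libraries, and CLEC9A, which defines a cross-presenting subset, was at 0. CCR7, the homing receptor of mature dendritic cells, stood at 270, 134 and 232 CPM, and IRF4, a transcription factor of activated lymphocytes and dendritic cells, at 158, 66.1 and 131 CPM. Of 10 B cell markers 6 were macrophage-high and 2, among them EBF1, stromal-high (sums 78.3 to 89.7 and 11.1 to 54.5 CPM), with CD79A at 2.15, 3.91 and 3.32 CPM and MS4A1 at 1.58, 3.19 and 1.46 CPM in macrophages. Of 12 endothelial markers 8 were macrophage-high and ERG was stromal-high (104 to 162 and 69.4 to 99.5 CPM), with the defining PECAM1 and VWF in neither class. Granulocyte markers were macrophage-high in 3 of 6, with S100A12 stromal-high (283 to 592 and 8.37 to 29.4 CPM), platelet markers in 3 of 7 (34.4 to 63.9 and 11.8 to 14.9 CPM, GP1BB and GP6 at 0 in macrophages), mast cell markers in 3 of 3 (0.68 to 1.26 and 0 to 0.0734 CPM, CPA3 at 0) and epithelial markers in 1 of 3 (2.89 to 5.3 and 1.1 to 9.62 CPM). Most of the granulocyte sum in macrophages was CSF3R alone, at 587, 277 and 463 CPM. LTF, also of the granulocyte list, had 17 counts over the macrophage libraries. With the code AG1, ORC or PC as a block in the fit, 3 calls of these marker lists were lost, those of LTF, XCR1 and GP1BA.

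Among Toll-like receptors and other sensors 15 of 21 were macrophage-high and none stromal-high. TLR2, the receptor for bacterial lipopeptides, stood at 59.1, 55.2 and 49.8 CPM against 1.03 to 2.37 in stromal libraries. TLR8, an RNA sensor of endosomes, stood at 34.8, 65.5 and 66.4 CPM against at most 0.238. NLRP3, an inflammasome sensor, stood at 60.5, 65.8 and 65 CPM in macrophages, and among chondrocytes at 6.57 and 7.4 CPM in the AG1 and PC libraries but at 0.595 in the ORC library. TLR3, the receptor for double-stranded RNA, was at 13.9, 40.1 and 31.9 CPM in macrophages, 0.404 to 1.03 in synoviocytes and 0 in chondrocytes. STING1, the adaptor for cyclic dinucleotides, was at 46.3, 44.8 and 48.6 CPM in macrophages, 7.71 to 8.92 in synoviocytes and 9.17 to 17.4 in chondrocytes, and with log2 differences of 2.48 and 1.73 it was in neither class. TLR4, the lipopolysaccharide receptor, had fewer than 10 counts over the 9 libraries and was not tested.

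Of 25 genes for IL-1 and TNF receptors and their proximal signalling, 3 were macrophage-high, 12% against 13.9% of all tested genes, none was stromal-high and 22 were in neither class. The share called was near that of all genes, and the median log2 fold changes were 0.92 and 0.72. TNFRSF1A, the TNF receptor of most cells, was at 78.1, 77.7 and 70.6 CPM in macrophages, 87.4, 72.4 and 79 in synoviocytes and 95.5, 92.5 and 92.4 in chondrocytes (log2 difference −0.11 ± 0.1, adjusted p = 0.356, and −0.32 ± 0.1, adjusted p = 0.0141). RELA, a subunit of NF-κB, differed by 0.04 and −0.14, and MYD88, the adaptor of IL-1 and Toll-like receptors, by 1.13 and 1.43. IL1R1, the signalling IL-1 receptor, was lower in macrophages, at 16.8, 14.4 and 14.9 CPM against 40.2 to 71.9 CPM in stromal libraries (−1.67 and −1.78), short of 4-fold.

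The 3 genes of that list that were macrophage-high were TNFRSF1B, IL1R2 and TNFAIP3. TNFRSF1B, the second TNF receptor, stood at 1000, 581 and 697 CPM in macrophages, 29.9 to 32 in synoviocytes and 12.3 to 19 in chondrocytes (4.59 ± 0.237, adjusted p = 3.16e-08, and 5.65 ± 0.251, adjusted p = 1.01e-08). IL1R2, a decoy receptor that binds IL-1 without signalling, stood at 14.8, 18.8 and 8.9 CPM in macrophages and at most 0.554 in stromal libraries. TNFAIP3, the NF-κB inhibitor A20, stood at 200, 214 and 261 CPM in macrophages, 19.3, 22.2 and 19.7 in synoviocytes and 54.3, 16.9 and 57.9 in chondrocytes. Its smaller log2 difference was 2.37 with all libraries and 2.00 without the chondrocyte ORC library, where it was no longer called.

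Genes of MHC class II presentation were macrophage-high in 9 of 13 cases, and the 4 others, IFI30, RFX5, RFXAP and RFXANK, were in neither class. CD74, the invariant chain, stood at 3300, 3410 and 3960 CPM in macrophages, with at most 0.0367 CPM in synoviocytes and 0 in chondrocytes, at least 111000-fold lower. DRA, a class II α chain, stood at 940, 1230 and 1490 CPM. HLA-DMB, which helps to load peptide, stood at 157, 190 and 318 CPM against 0.489 to 0.828 CPM in stromal libraries. B2M, the light chain of class I, was measurable in every cell type but also macrophage-high, at 8610, 8340 and 8100 CPM against 263 to 293 in synoviocytes and 161 to 182 in chondrocytes (4.86 ± 0.149 and 5.61 ± 0.155). Reads of class II paralogs can be split among near-identical genes, so the single chains are less certain than the group.

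Cytokine genes were divided between the cell types. Of 23 inflammatory cytokines 13 were macrophage-high and 4 stromal-high, with median log2 fold changes of 3.98 and 4.27 (2.81 and 3.60 with bounds). IL1B, which encodes IL-1β, stood at 411, 413 and 77.1 CPM in macrophages, 0.11 to 0.31 in synoviocytes and 6.71, 0 and 8.6 in chondrocytes (10.62 ± 1.35, adjusted p = 3.68e-05, and 5.83 ± 0.969, adjusted p = 2.87e-04). The macrophage PC library was the lowest of the 3 and still above all stromal libraries. TNF stood at 61.1, 28.4 and 30.3 CPM with no stromal counts, no less than 1170-fold above synoviocytes and 1240-fold above chondrocytes. IL1RN, the natural IL-1 receptor antagonist, stood at 335, 210 and 200 CPM, also with no stromal counts. IL10, an anti-inflammatory cytokine, reached 11.3, 20.8 and 8.21 CPM with none in the stromal libraries. Both the IL-1 genes and their antagonist, and both TNF and IL10, were therefore in the macrophage-high class.

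The 4 stromal-high cytokines were IL6, IL11, IL34 and TGFB2. IL6 stood at 71.8, 74.2 and 69.3 CPM in macrophages, 1050, 671 and 1020 in synoviocytes and 3180, 863 and 3390 in chondrocytes (−3.70 ± 0.446, adjusted p = 2.49e-05, and −5.12 ± 0.477, adjusted p = 3.21e-06). IL11, a relative of IL-6 made by fibroblasts, stood at 2.1, 0.51 and 0.877 CPM in macrophages, 213, 334 and 239 in synoviocytes and 909, 250 and 1060 in chondrocytes (−7.76 ± 0.654 and −9.25 ± 0.688). IL6 was even among macrophages, IL11 was uneven at its low macrophage level, and among chondrocytes both were lowest in the ORC library. CSF3, the gene of G-CSF, was in neither class: it was 3.98 higher in macrophages than in synoviocytes on the log2 scale, whereas against chondrocytes, at 61.2, 3.49 and 93 CPM, the difference was −0.09.

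The ligands of the M-CSF receptor fell into different classes. CSF1, which encodes M-CSF, stood at 3740, 2110 and 2870 CPM in macrophages, 117 to 135 in synoviocytes and 100 to 185 in chondrocytes (4.53 and 4.48). IL34, the other ligand of the receptor, was lower in macrophages, at 4.53, 4.42 and 4.3 CPM against 23.6 to 43.8 in stromal libraries (−2.80 and −2.97). The macrophages carried the receptor and CSF1, while IL34 was in the stromal-high class.

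**Figure D3:**
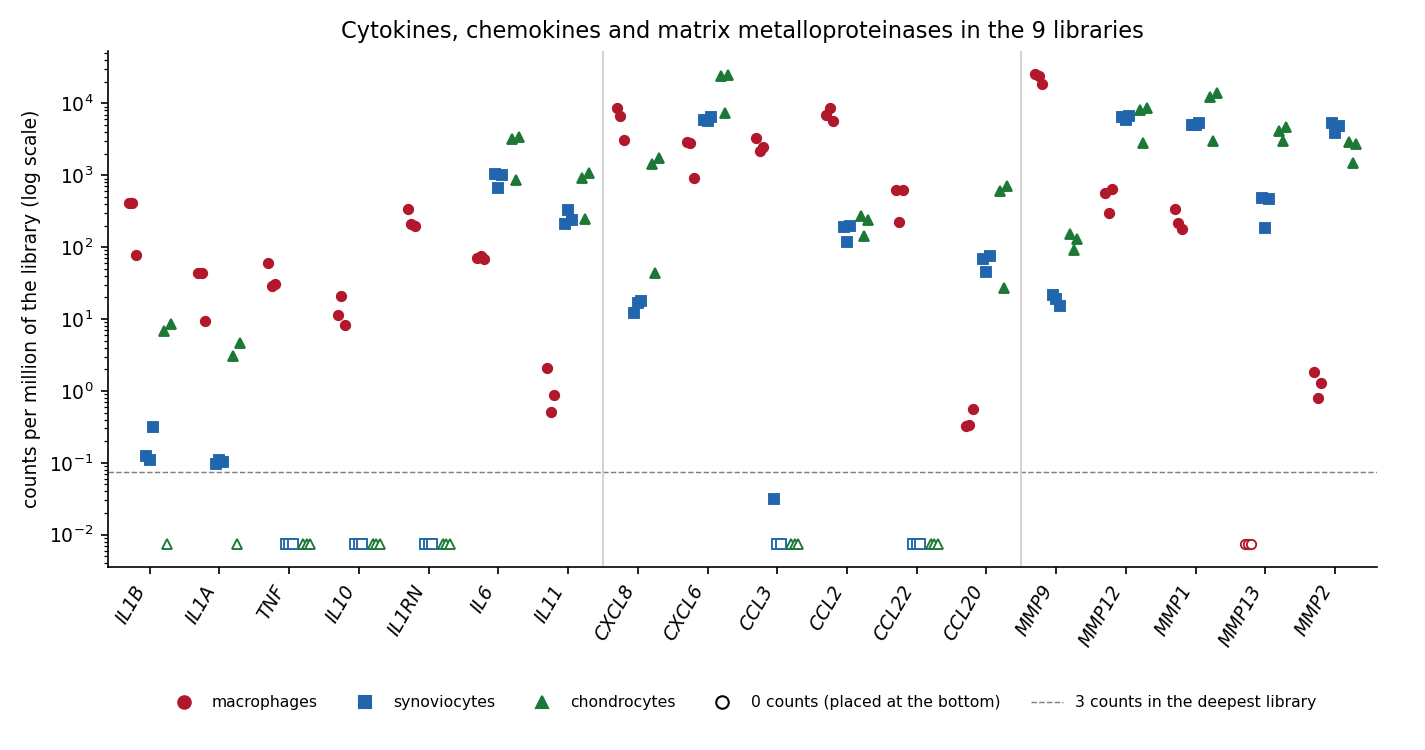
Level of 18 genes for cytokines, chemokines and matrix metalloproteinases in each of the 9 libraries, in CPM on a log axis, with open symbols at the bottom for 0 counts. IL1B, TNF, IL1RN, CCL3 and MMP9 are highest in the 3 macrophage libraries, IL6, IL11, CCL20, MMP1, MMP13 and MMP2 in the stromal ones, and the chondrocyte ORC library lies below the other chondrocytes for CXCL8, CCL20 and IL6.

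Of 17 chemokines 12 were macrophage-high and 2, CCL20 and CXCL12, stromal-high. CCL3, a ligand of CCR1, stood at 3320, 2210 and 2440 CPM in macrophages, with 1 count in the 3 synoviocyte libraries together and 0 in chondrocytes (at least 82600-fold). CCL2, the monocyte chemoattractant MCP-1, was expressed by all cells but was macrophage-high, at 6980, 8640 and 5650 CPM against 118 to 194 in synoviocytes and 142 to 273 in chondrocytes (5.37 ± 0.335 and 5.00 ± 0.329). CCL22 and CCL17, both ligands of CCR4, stood at 620, 227 and 619 CPM and at 693, 284 and 522 CPM, each lowest in the ORC library. The reverse held for the interferon-inducible CXCL10 and CXCL11, which stood at 141, 542 and 319 CPM and at 160, 482 and 345 CPM, each highest in the ORC library. Apart from CCL2, these chemokines were at most at 1.06 CPM in any stromal library.

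CXCL8, which encodes the neutrophil attractant IL-8, was macrophage-high but the call rested on few libraries. It stood at 8750, 6640 and 3090 CPM in macrophages, 12.2, 16.9 and 18 in synoviocytes and 1420, 43.3 and 1760 in chondrocytes. The difference was 8.59 ± 1.2 against synoviocytes (adjusted p = 8.02e-05) and 2.51 ± 0.91 against chondrocytes (adjusted p = 0.0293). Without the chondrocyte ORC library it was 1.95 against chondrocytes and not called, and the call was also lost without the macrophage AG1, the macrophage ORC or the chondrocyte AG1 library, with values up to 2.77, and in a fit of the macrophages and chondrocytes alone (2.51). In the single library of chondrocytes that had received cytokines but no MSC-CM, CXCL8 was at 3310 CPM, and in that without any addition at 3.16 CPM.

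Some chemokines were in neither class or stromal-high. CXCL6, which binds the same receptors as IL-8, stood at 2900, 2820 and 920 CPM in macrophages, 5830, 5730 and 6490 in synoviocytes and 23900, 7390 and 25000 in chondrocytes, and was in neither class (−1.47 and −3.10). CXCL1, of the same family, differed by 2.86 and 1.04 and was in neither class. CCL20, which attracts CCR6-bearing lymphocytes, stood at 0.322, 0.34 and 0.558 CPM in macrophages, 67.7, 45.8 and 76.1 in synoviocytes and 605, 27.2 and 705 in chondrocytes (−7.28 ± 1.14, adjusted p = 1.88e-04, and −10.07 ± 1.22, adjusted p = 2.57e-05). CXCL12, which retains leukocytes and progenitors in tissue, was 28.7-fold and 10.5-fold lower in macrophages.

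Receptors for chemoattractants were macrophage-high in 14 of 15 cases and stromal-high in none. CCR1, a receptor of CCL3, stood at 433, 399 and 436 CPM with 0 stromal counts. Receptors for other cytokines were more evenly divided, with 7 of 20 macrophage-high, 2 stromal-high and 11 in neither class. IL2RG, the common γ chain, stood at 356, 472 and 413 CPM in macrophages against at most 0.588 in a stromal library. LIFR and OSMR, receptor chains that pair with gp130 for LIF and oncostatin M, were the 2 stromal-high genes. OSMR stood at 0.842, 0.595 and 1.01 CPM in macrophages and 81.4 to 129 in stromal libraries (−6.83 and −7.01), and LIFR had at most 2 counts in a macrophage library and 11.5 to 19.4 CPM in stromal libraries. IL6ST, which encodes gp130 itself, differed by −1.77 and −1.99 and was in neither class.

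Of 26 lysosomal proteases and membrane proteins 15 were macrophage-high, 1 was stromal-high and 10 were in neither class, and their summed level was 47100 to 63600 CPM in macrophages and 4650 to 7080 in stromal libraries. CTSB, the protease cathepsin B, stood at 10400, 15400 and 14800 CPM in macrophages, 802 to 846 in synoviocytes and 995 to 1440 in chondrocytes (4.02 ± 0.237, adjusted p = 8.92e-08, and 3.55 ± 0.232, adjusted p = 1.98e-07). CTSL, cathepsin L, stood at 1620, 2820 and 1990 CPM against 0.119 to 2.09 CPM (10.22 and 12.48). CTSS, the cathepsin that trims the invariant chain, stood at 4090, 3900 and 3540 CPM against 65.6 to 116 CPM (5.06 and 5.37). CTSF, a cathepsin of the papain family, was the stromal-high member, at 22.8, 19.9 and 21.3 CPM in macrophages and 162 to 225 in stromal libraries (−3.13 and −3.34). CTSD, an aspartic protease, was 3.07 and 1.48 higher and in neither class.

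Genes for lipid handling split along a similar line. Of 23 genes 13 were macrophage-high and 3 stromal-high. LPL, the lipoprotein lipase, stood at 3260, 3100 and 3140 CPM in macrophages against 0.33 to 0.757 in synoviocytes and a single count in the chondrocytes. CD36, the fatty acid and oxidized lipoprotein receptor, was uneven, at 81.1, 264 and 193 CPM, and FABP5, a fatty acid carrier, stood at 504, 888 and 569 CPM. SCD, the desaturase that makes monounsaturated fatty acids, was stromal-high, at 4.26, 3.15 and 4.22 CPM in macrophages, 479 to 616 in synoviocytes and 303 to 509 in chondrocytes (−7.15 ± 0.24 and −6.74 ± 0.236). PLTP, a phospholipid transfer protein, and CYP27A1, the sterol 27-hydroxylase, were also stromal-high, 48.8-fold and 61.5-fold lower and 34.4-fold and 29.1-fold lower in macrophages.

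Of 14 genes of iron handling 7 were macrophage-high and 2 stromal-high. SLC11A1, the phagosomal metal transporter NRAMP1, stood at 52, 119 and 84.6 CPM against 1.55 to 5.73 in stromal libraries. SLC40A1, the iron exporter ferroportin, was lower in macrophages, at 0.842, 1.57 and 1.33 CPM against 16 to 35 (−4.74 and −3.90). CP, the ferroxidase ceruloplasmin that works with ferroportin, stood at 0.213 to 0.371 CPM in macrophages and 131 to 672 CPM in stromal libraries (−9.31 and −10.83). The exporter and its ferroxidase were thus both in the stromal-high class.

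Complement components were macrophage-high in 4 of 13 cases. C1QB and C1QC, chains of C1q, had no stromal counts, and C1QC stood at 13.2, 28 and 32.8 CPM in macrophages. CFP, properdin, which stabilizes the alternative pathway convertase, stood at 167, 324 and 295 CPM and C2, a component of the classical pathway, at 62, 155 and 144 CPM, each lowest in the AG1 library. CLU, the complement inhibitor clusterin, was the stromal-high member, at 0.744 to 1.4 CPM in macrophages, 3740, 1890 and 3300 in synoviocytes and 5320, 3410 and 4880 in chondrocytes (−11.67 and −12.25).

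Many genes of multinucleation and bone resorption were also in the macrophage-high class, but not all. Of 13 osteoclast genes 9 were macrophage-high, none stromal-high and 4 in neither class. Against chondrocytes, ATP6V0D2, a proton pump subunit of osteoclasts, was lower in macrophages (−4.07, 197 against 3067 counts over the groups), and it was in neither class. NFATC1 and OSCAR, a transcription factor and a receptor of osteoclasts, were in neither class either (0.39 and −1.04 against chondrocytes). DCSTAMP and OCSTAMP, membrane proteins needed for fusion, stood at 234, 301 and 335 CPM and at 262, 130 and 212 CPM, with no stromal count of the former and at most 0.126 CPM of the latter. SIGLEC15, a receptor that pairs with DAP12, stood at 32.4, 33 and 26.5 CPM. CTSK, cathepsin K, was macrophage-high and also measured in every stromal library, at 2470, 2710 and 2060 CPM in macrophages and 272 to 526 in stromal libraries (2.97 and 2.26). CKB, the brain-type creatine kinase, which osteoclasts also express, stood at 7790, 6350 and 7040 CPM against 0.561 to 1.87 in stromal libraries (12.33 and 12.90), and SPP1, the matrix protein osteopontin, at 4190, 6370 and 5940 CPM against 0.374 to 1.67 (11.81 and 13.34).

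Further macrophage-high genes chosen for their level or fold came from several families. GPNMB, a glycoprotein of lysosomes, stood at 4210, 8030 and 5600 CPM and was also well detected in synoviocytes, at 225 to 312 CPM (4.41 and 6.03). CCL8, another monocyte attractant, stood at 6210, 5820 and 4480 CPM against at most 0.187 CPM in a stromal library. SERPINB10, a protease inhibitor, stood at 5800, 9140 and 5570 CPM against 0.632 to 1.91. PSAP, the precursor of the saposins, differed less, at 10400, 13100 and 13700 CPM against 1230 to 1980 (3.11 and 2.67). CSF3R, the G-CSF receptor, stood at 587, 277 and 463 CPM, ARHGAP25, a GTPase activator of hematopoietic cells, at 495, 378 and 443 CPM, and MPEG1, a pore-forming protein of phagosomes, at 147, 335 and 398 CPM, all with 0 stromal counts. Adhesion receptors of leukocytes were macrophage-high in 10 of 15 cases, among them CD84, of the SLAM family, at 162, 219 and 223 CPM with 0 stromal counts.

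On the stromal side, matrix genes were nearly all stromal-high. Of 29 stromal matrix genes 26 were stromal-high, none macrophage-high, and FN1, FBLN2 and VCAN were in neither class, against 12.8% stromal-high among all tested genes. Their median log2 fold changes were −10.71 and −10.63 (−10.71 and −10.01 with bounds) and their summed level was 4020 to 8210 CPM in macrophages and 141000 to 200000 CPM in stromal libraries. COL1A1, a chain of type I collagen, stood at 2.82, 4.17 and 2.1 CPM in macrophages, 39200, 39700 and 36500 in synoviocytes and 13500, 23800 and 12400 in chondrocytes (−13.68 ± 0.494, adjusted p = 2.55e-09, and −12.46 ± 0.476, adjusted p = 3.44e-09). COL3A1, type III collagen, was nearly equal in both stromal types, at 31600 to 37000 and 35500 to 46800 CPM, and at 0.771 to 4.23 CPM in macrophages (−13.91 ± 0.688, adjusted p = 2.28e-08, and −14.10 ± 0.691, adjusted p = 2.11e-08). LUM, the proteoglycan lumican, stood at 4210 to 8300 CPM in stromal libraries and at most 0.545 in macrophages. SPARC, a matricellular protein, stood at 4900 to 10700 CPM against 5.57 to 7.01, so its macrophage level was low but above the limit of 3 counts in every library.

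Several matrix genes had few or no macrophage counts. COL12A1, a collagen that coats fibrils, stood at 5880 to 9320 CPM in stromal libraries and at 0, 0.128 and 0.133 CPM in macrophages. SMOC2, a calcium-binding matrix protein, had no macrophage count against 460 to 789 CPM in synoviocytes and 1330 to 1800 in chondrocytes (at least 22300-fold and at least 52200-fold lower). COL16A1, COL11A1 and ITGBL1, the last a secreted integrin-like protein, were at 0 in macrophages and at 245 to 491, 149 to 481 and 95.2 to 142 CPM in stromal libraries. SAA, the acute phase protein serum amyloid A, was also at 0 in macrophages, and stood at 345, 98.2 and 318 CPM in synoviocytes and 1390, 676 and 1470 in chondrocytes. FN1, fibronectin, was in neither class: macrophages held 7350, 2400 and 6180 CPM against 15000 to 24300 CPM in stromal libraries (−1.82 and −1.81). THBS1, thrombospondin 1, was stromal-high but present in macrophages, at 267, 404 and 130 CPM against 11900 to 33200 (−5.75 and −6.74).

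Genes that identify stromal cells were stromal-high in 19 of 28 cases and LEPR, the leptin receptor, was macrophage-high at no more than 1.06 CPM. PRRX1, a transcription factor of limb mesenchyme, had 1 count in the 3 macrophage libraries together and stood at 283 to 449 CPM in stromal libraries. PDGFRA, the receptor that marks fibroblasts, stood at 229 to 292 CPM against at most 0.159 in macrophages (−11.93 and −11.83). CDH11, the cadherin of synovial fibroblasts, stood at 262 to 293 CPM in synoviocytes and 469 to 500 in chondrocytes against at most 0.619 in macrophages. VIM, vimentin, which is common to mesenchymal cells and macrophages, was at 2560 to 5410 CPM in all 9 libraries (0.44 and 0.53). Contractile genes were stromal-high in 11 of 17 cases, with ACTA2, smooth muscle actin, at 1120 to 3810 CPM in stromal libraries and 9.85, 13 and 11 CPM in macrophages, and MYL9, a myosin light chain, 6800-fold and 4890-fold lower in macrophages.

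Cartilage genes were stromal-high in 12 of 22 cases, and COL11A2, a fibrillar collagen gene, was macrophage-high, at 3.14, 3.44 and 2.42 CPM against at most 0.0977 CPM in a stromal library. SOX9, the cartilage transcription factor, stood at 5.34, 6.87 and 5.78 CPM in synoviocytes and at 9.97, 64.8 and 9.29 in chondrocytes, highest in the ORC library, and had 2 counts in macrophages altogether. Without the ORC library its mean in chondrocytes was 9.63 CPM. ACAN differed by −2.07 from synoviocytes and −6.51 from chondrocytes, and COMP, a cartilage matrix protein, by −2.77 and −7.09. FMOD, the proteoglycan fibromodulin, stood at 22.4 to 54.5 CPM in synoviocytes and 262 to 386 in chondrocytes with 1 macrophage count. Of 15 genes of the synovial lining 3 were macrophage-high and 1 stromal-high. CRTAC1, a secreted matrix protein, was the stromal-high member, and CLIC5, the growth factor gene HBEGF and the peptidase gene DPP4 were macrophage-high, with HBEGF at 396, 224 and 304 CPM against 2.41 to 6.39 in stromal libraries.

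Matrix metalloproteinases and related enzymes were mostly stromal-high, with MMP9 as the main exception. Of 24 enzymes and inhibitors 14 were stromal-high and 3, MMP9, MMP25 and ADAMDEC1, were macrophage-high. MMP9, gelatinase B, stood at 25500, 24400 and 18500 CPM in macrophages, 21.6, 19 and 15.2 in synoviocytes and 153, 90.9 and 129 in chondrocytes (10.23 ± 0.333, adjusted p = 1.31e-09, and 7.51 ± 0.297, adjusted p = 4.49e-09). MMP2, gelatinase A, had the reverse pattern, at 0.808 to 1.86 CPM in macrophages and 1490 to 5330 CPM in stromal libraries (−11.78 and −10.79). The gelatinases were thus divided between the cell types with no overlap between groups.

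The collagenases were stromal-high. MMP13, the collagenase of cartilage breakdown, had no macrophage count and stood at 477, 185 and 462 CPM in synoviocytes and 4180, 2960 and 4770 in chondrocytes (at least 12700-fold and at least 134000-fold lower). MMP1, the interstitial collagenase, was present in macrophages at 339, 216 and 180 CPM and stood at 4940, 4990 and 5280 in synoviocytes and 12400, 3030 and 14000 in chondrocytes (−4.40 ± 0.513, adjusted p = 1.91e-05, and −5.34 ± 0.536, adjusted p = 5.87e-06). MMP12, named macrophage elastase, was stromal-high as well, at 576, 296 and 640 CPM in macrophages, 6380, 5800 and 6770 in synoviocytes and 7990, 2810 and 8750 in chondrocytes (−3.68 ± 0.433, adjusted p = 2.08e-05, and −3.70 ± 0.433, adjusted p = 1.97e-05). No macrophage library reached the level of MMP12 in any stromal library. In the single libraries with no addition MMP12 was at 186 CPM in macrophages, 482 in synoviocytes and 107 in chondrocytes, and with cytokines alone at 174, 8440 and 12100 CPM. ADAMTS5, an aggrecanase, stood at 121 to 326 CPM in stromal libraries and 0.213 to 0.347 in macrophages (−10.14 and −9.06), while MMP14 and the inhibitor TIMP1 were in neither class.

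Of 28 cell cycle genes 12 were stromal-high, none was macrophage-high and 16 were in neither class, with median log2 fold changes of −2.27 and −1.83. Without the chondrocyte ORC library, 3 of the 12 calls were lost, those of NDC80, PLK1 and TPX2, each just past 4-fold against chondrocytes. KIF20A, a mitotic kinesin, stood at 6.61, 4.72 and 7.44 CPM in macrophages and 97.8 to 163 in stromal libraries (−4.66 and −4.27), and BIRC5, survivin, at 3.74 to 4.62 against 30.3 to 52.5 CPM (−3.45 and −3.02). PCNA, the sliding clamp of DNA polymerase, was at 46.7 to 69.6 CPM in all 9 libraries (−0.04, adjusted p = 0.782, and 0.10, adjusted p = 0.505), and MCM4, of the replicative helicase, differed by 0.01 and 0.46.

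**Figure D4:**
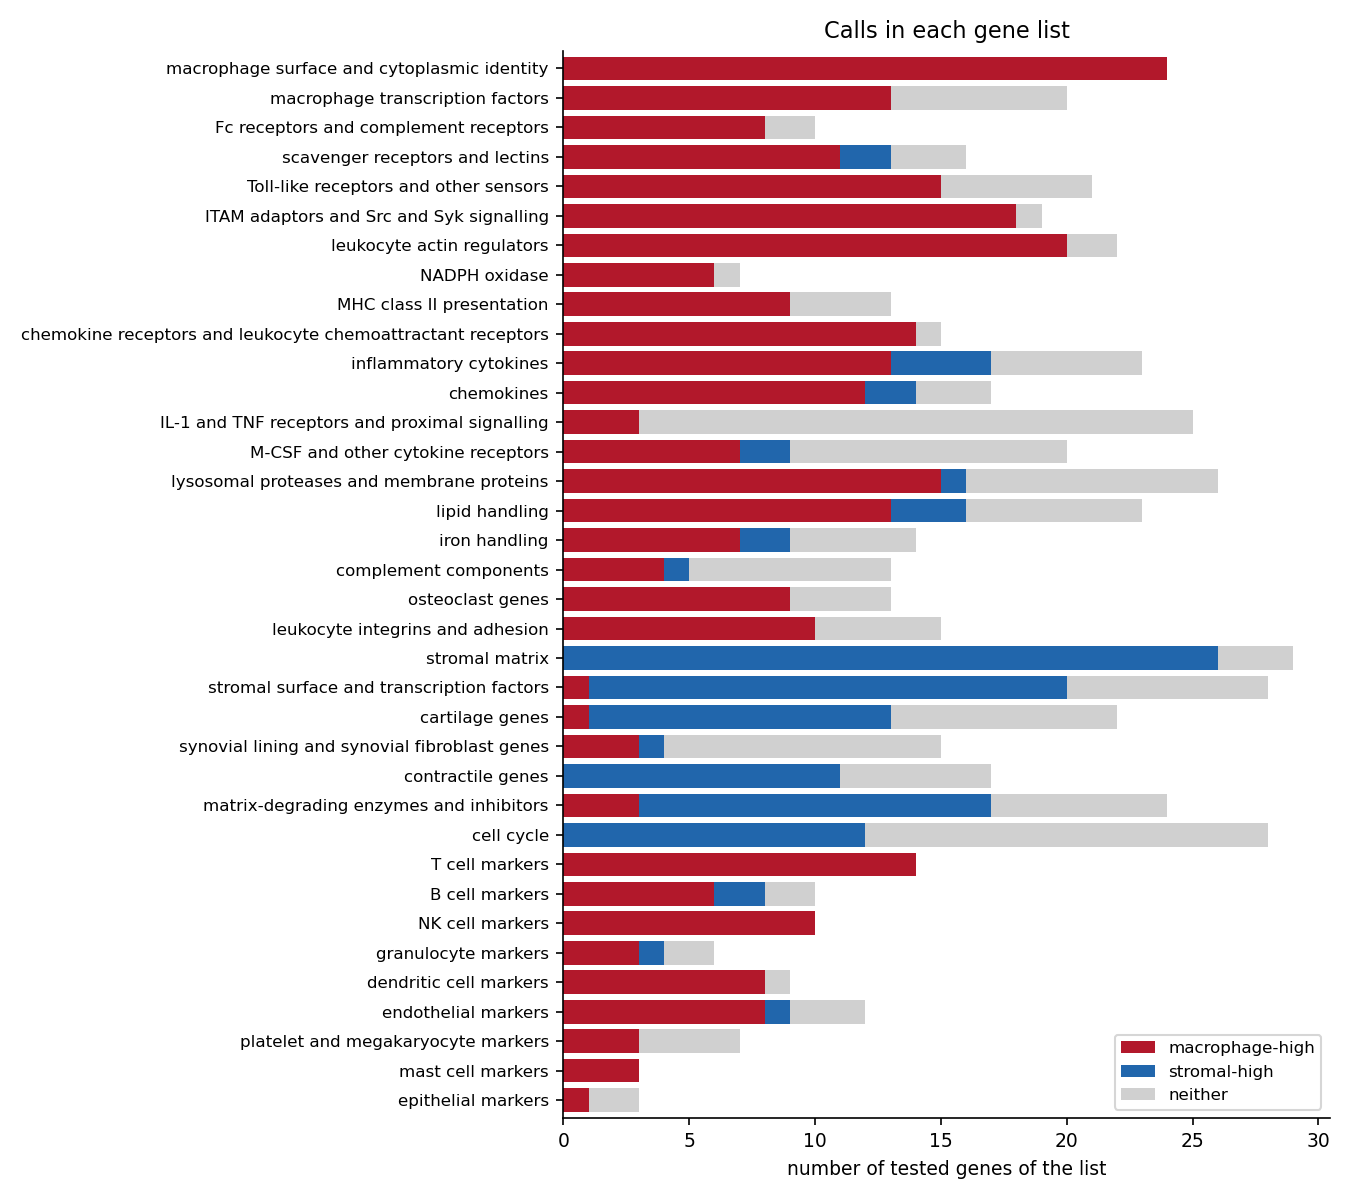
Calls in the 36 gene lists, as the number of tested genes of each list (x axis) that were macrophage-high, stromal-high or in neither class. Macrophage identity (24 of 24), ITAM signalling (18 of 19) and chemoattractant receptors (14 of 15) are nearly all macrophage-high, stromal matrix (26 of 29) is nearly all stromal-high, and of the IL-1 and TNF signalling genes 22 of 25 are in neither class.

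A small number of genes separated macrophages from the stromal cell types in opposite directions. With any fold, 96 genes were higher than in one stromal type and lower than in the other, and 20 of them, 16 with a symbol, passed 4-fold in both directions. IL1RL1, the IL-33 receptor ST2, stood at 0.792, 2.08 and 1.67 CPM in macrophages, 24.2, 8.81 and 20.5 in synoviocytes and at most 0.0326 in chondrocytes. CALCRL, a receptor for adrenomedullin and CGRP, stood at 0.255 to 0.452 CPM in macrophages between 2.46 to 4.51 in synoviocytes and at most 0.0397 in chondrocytes. SPAG6, a protein of motile cilia, had the same order, at 0.877 to 1.4, 4.52 to 6.03 and 0.0652 to 0.198 CPM. CYP4F119, a cytochrome P450 gene, had the other order, at 0.797 to 1.73 CPM in macrophages, 0.0689 to 0.22 in synoviocytes and 3.68 to 9.65 in chondrocytes. In these 4 genes the 3 groups did not overlap.

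The macrophage libraries differed among themselves at some of the same genes. Over the 1143 macrophage-high genes with a mean of at least 10 CPM in macrophages, the range between the lowest and highest of the 3 libraries had a median of 0.49 on the log2 scale, and 183 genes had a range over 1 and 16 a range over 2. The AG1 library was the lowest of the 3 in 111 of the 183 genes, ORC in 57 and PC in 15. ADGRE1, the F4/80 antigen, stood at 57.1, 191 and 251 CPM, CD163L1, a relative of CD163, at 10.4, 75.8 and 58.8 CPM and CD5L, a secreted protein of tissue macrophages, at 1.91, 22.9 and 28.8 CPM, each lowest in the AG1 library. CLEC5A, a lectin of myeloid cells, had the other order, at 55.3, 12.2 and 5.87 CPM, as did CD1A1, of the lipid-presenting CD1 family, at 55, 6.59 and 12.4 CPM. In the single macrophage library with no addition these 5 genes stood at 195, 65.2, 29.8, 8.79 and 4.4 CPM, in the order named. With resting MSC-CM each code is a single culture, so there the source of the medium and the culture cannot be told apart. Macrophages with medium of TLR3-activated and of STING-activated MSC carried the same codes. CD163 was again lowest in AG1 there, at 65.3, 285 and 288 CPM and at 172, 611 and 288 CPM. CLEC5A stood at 13.4, 15.1 and 7.51 CPM and at 14.4, 9.88 and 5.14 CPM, without the high AG1 value. The cause of these differences was not tested.

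The 2 classes were compared with the calls in the other media, which came from other libraries. With medium of MSC activated by the Toll-like receptor 3 agonist (TLR-MSC-CM), 2164 of 15701 tested genes (13.8%) were macrophage-high and 2007 (12.8%) stromal-high by the same rule. Of the macrophage-high genes 1963 were shared with resting MSC-CM, 90.8% of the resting list and 90.7% of the TLR list, and of the stromal-high genes 1816 (90.8% and 90.5%). With medium of MSC activated by the STING agonist (STING-MSC-CM), 2097 of 15521 tested genes (13.5%) were macrophage-high and 2027 (13.1%) stromal-high. There 1935 macrophage-high genes were shared, 89.5% of the resting list and 92.3% of the STING list, and 1807 stromal-high genes (90.3% and 89.1%). No gene was macrophage-high in one of these media and stromal-high in resting MSC-CM, or the reverse.

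Without MSC-CM there was 1 library of each cell type, which gives no replicate check. With no addition, 1757 genes (11.3%) were at least 4-fold higher in the macrophage library than in both stromal ones and 1830 (11.7%) at least 4-fold lower. Of the former 1634 were macrophage-high in resting MSC-CM, 75.6% of that class and 93% of the genes found without addition, and of the latter 1606 were stromal-high (80.3% and 87.8%). With cytokines alone, 1777 genes (11.4%) were higher and 1726 (11.1%) lower, of which 1695 (78.4% and 95.4%) and 1592 (79.6% and 92.2%) were in the matching class. SPI1 was at 730 CPM in macrophages with no addition and at 0 in both stromal libraries, and MMP9 was at 23800 CPM in macrophages against 17.8 in synoviocytes and 273 in chondrocytes. By contrast, IL11 stood at 12.7 CPM in synoviocytes and 20.7 in chondrocytes with no addition and at 250 and 1610 CPM with cytokines alone.

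The share of each library's counts that fell on the 2 classes was close within each joint cell type. In the 9 libraries that gave the calls, the contrast between macrophages and stromal cells follows from the rule of the calls. Macrophage-high genes held 36.7 to 38.7% of counts in the 3 macrophage libraries, 1.84 to 1.93% in synoviocytes, 1.87 to 2.24% in chondrocytes and 2.3 to 2.93% in untreated MSC. Stromal-high genes held 0.984 to 1.06% in macrophages, 34.3 to 37.3% in synoviocytes, 33.6 to 35.9% in chondrocytes and 22.9 to 30.6% in untreated MSC. In MSC given the agonists, macrophage-high genes held 2.21 to 6.41% with the TLR3 agonist and 4.47 to 7.97% with the STING agonist. The MSC libraries, which were not used for the calls, were nearer to the stromal cells than to macrophages on both measures.

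**Figure D5:**
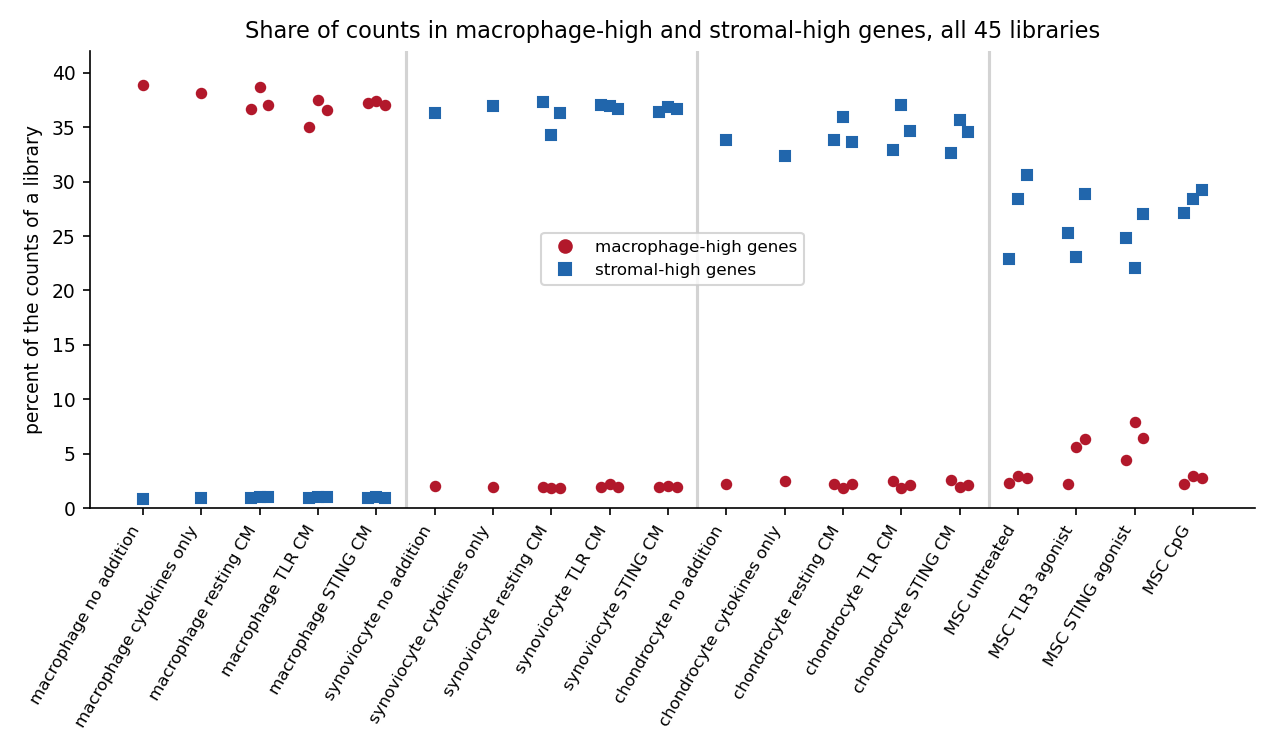
Percent of each library's counts that fell on macrophage-high genes and on stromal-high genes in all 45 libraries, by cell type and treatment; each point is a library. The macrophage libraries of every treatment hold the high share of macrophage-high genes, and synoviocytes, chondrocytes and MSC the high share of stromal-high genes. In the 9 libraries that were compared, macrophage-high genes hold 36.7 to 38.7% against 1.84 to 2.24%, a contrast that follows from the rule of the calls.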

How the data were processed

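RNA-seq was performed on equine MSC and joint cells, and the authors deposited tables of raw counts per protein-coding gene, made, per the submitters' processing notes, with cutadapt 1.12, STAR and HTSeq 0.11.0 against EquCab3.0, with DESeq2 also named. The deposited counts of 1000000 or more are written with 3 significant digits, which applied to 31 values of the joint cell table. The table gave symbols for most genes and Ensembl identifiers for 3970 of 20881.

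Samples were grouped by their labels. Genes with at least 10 counts over the 9 libraries were tested with edgeR 4.0.16 (quasi-likelihood test, TMM scaling, prior count 0.125, limma 3.58.1, R 4.3.3) in a fit of 3 groups of 3 libraries, with Benjamini-Hochberg adjustment over 15599 genes. A call needed an adjusted p under 0.05 and 4-fold (2 on the log2 scale) against both stromal cell types. Log2 fold changes are given with synoviocytes first and chondrocytes second. The SE after ± is an approximation, the absolute log2 fold change divided by the square root of the quasi-likelihood F statistic. Where a group had no count, the fold is a lower bound at 3 counts over the group, and the report gives no fold against a group with 1 to 3 counts; the differences between stromal types in the closing section are fitted values. Bounds and limits cover counting error only. The fit was tested on simulated counts in which few genes changed, with hits taken by adjusted p and direction alone. Neither the 4-fold rule nor scaling with as many changed genes as here was tested by it.

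The members and gene lists were chosen with earlier results of these data known. The genes named were those with a symbol that had the 12 largest smaller fold changes and the 12 highest mean levels among macrophage-high genes without overlap, 8 and 8 likewise among stromal-high genes, up to 5 called members of each list by smaller fold change, members called against their list, defining members at 0, macrophage-high genes of other cell types' lists, and up to 8 genes called in opposite directions. Other named genes, such as TNFRSF1A, RELA, MYD88, CXCL6, CD14, SIGLEC1, IL6ST, CTSD, VIM, MMP14, PCNA, ACTA2, CTSK, IL10 and TNF, and those that varied among macrophages, were chosen after their values were seen.

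Libraries with the same code (AG1, ORC or PC) share the cell line field of the labels, and their deviations from the group means correlated at r = −0.0015 to 0.215 between macrophages and stromal cells and 0.173 to 0.204 between the stromal types. A fit with this code as a replicate block, DESeq2 1.42.0, other scalings, filters and prior counts, other sets of libraries and the omission of each library in turn were tried. Replicates were separate libraries, with a chi-square per degree of freedom of at least 9.49 between any pair. No genome sequence was used here. Some members of the gene lists are counted in the lists but not reported here by name.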

Additional observations from a re-analysis of the deposited data

Results flagged for a closer look

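In 8 genes called in opposite directions the difference between the macrophage contrasts was itself tested, which is the same as chondrocytes against synoviocytes on the log2 scale in the edgeR quasi-likelihood fit. CLSTN2 differed by −10.80 (adjusted p = 1.07e-05), IL1RL1 by −9.49 (1.85e-05), SLC1A7 by −8.07 (3.33e-04) and CALCRL by −7.82 (3.41e-05). LVRN differed by −6.26 (2.05e-04), AOC3 by −6.09 (6.45e-05), CYP4F119 by 5.64 (8.45e-05) and SPAG6 by −5.20 (1.16e-05). CLSTN2 and SLC1A7 had no count in any chondrocyte library and IL1RL1, CALCRL and LVRN had 1 or 2 over the group, and the fitted value of such a gene is no measure of size and depends on the prior count: with a prior count of 2, SLC1A7 was no longer called. In 7 of these genes the synoviocyte level was the highest of the 3 cell types, and CYP4F119 was highest in chondrocytes. These genes were selected for calls in opposite directions in the same fit, so the tests describe the size of the difference and give no independent support for it.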

How the results depend on the processing

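The calls kept their direction in every alternative. Of 4262 values of 225 followed genes under the alternatives, 4228 kept their side of the threshold, 34 (9 genes: KDR, LTF, XCR1, GP1BA, SOX9, CXCL8, PAX5, TNFAIP3 and SLC1A7) lost it, and 0 changed sign. Counts depended on the fold threshold: with none, 11174 genes differed from synoviocytes and 11149 from chondrocytes, 5036 were macrophage-high and 4687 stromal-high, and at a log2 fold change of at least 1 stromal-high genes numbered 3110. Under the other alternatives, omissions apart, macrophage-high genes numbered 1809 to 2216 and stromal-high genes 1804 to 2106, and with 1 library left out 2058 to 2134 and 1935 to 1999. Without the chondrocyte ORC library there were 2134 and 1956, of which 2102 and 1928 were shared with the calls from all libraries. With the code AG1, ORC or PC as a replicate block, 4805 genes were called for macrophages against synoviocytes and 4761 for macrophages against chondrocytes, 2072 were macrophage-high (2057 shared) and 1970 stromal-high (1954 shared), with 2020 macrophage-high in TLR-MSC-CM and 2047 in STING-MSC-CM. Besides LTF (5.21), XCR1 (4.88) and GP1BA (2.98), the block ended no call of a named gene. DESeq2 gave 2062 macrophage-high and 1989 stromal-high genes. Scalings moved the median of all genes to between −0.07 and 0.07 on the log2 scale. Depth limits genes near 3 counts, where a large fold can rest on 1 stromal read.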
